A study of Mus musculus with 8 samples.

Results

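Aminoacyl-tRNA synthetases are the enzymes that join each amino acid to its transfer RNA. The family was followed through 36 genes, 20 for cytosolic and 16 for mitochondrial enzymes, taken by symbol from the 23469 symbols of the deposited tables, and all 36 were listed in both tables. The gene for the mitochondrial leucine enzyme, Lars2, had drawn attention to the family because its measured level stood far above the rest. The set was thus selected on the RPKM of Lars2, whose values are described below with no test.

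The RNA came from germinal centre (GC) B cells, which divide and mutate their immunoglobulin genes during an antibody response. They were sorted as B220+ FAShigh GL7high cells of C57BL/6 mice on day 13 of a response to NP-KLH, which is a hapten coupled to a protein carrier. The Ctrl group was Irf8+/+ and the Irf8 cKO group was Irf8flox/flox, and the mice of both groups carry 1 Cre allele. Experiments 1 and 2 gave 1 library of each group (n = 2 per group). Nothing in the labels says that the mice of the 2 experiments were separate animals. The p-values thus rest on spread between these samples, which may be technical. In the fit to values as deposited that spread was pooled over genes of like level, and a gene's own spread did not enter. A further 4 samples hold lipopolysaccharide-activated B cells and were not analysed here. The labels give no age.

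Cytosolic synthetases charge the transfer RNAs read by cytosolic ribosomes. Mitochondrial synthetases are encoded in the nucleus, imported, and serve the ribosomes that make the few proteins of the mitochondrial genome. Most amino acids have a separate gene for each compartment, while Kars (lysine) and Gars (glycine) each serve both, and Eprs joins a glutamate and a proline enzyme in a single protein. 8 cytosolic enzymes sit together in the multisynthetase complex. Uncharged transfer RNAs activate the kinase GCN2, and the factor ATF4 then raises the transcription of many cytosolic synthetase genes through amino acid response elements.

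The level unit was RPKM, a read count divided by transcript length and by the library's mapped reads, so levels of genes of different length can be set side by side. Estimated read totals ran from 63.1 to 76.0 M reads per library (M, mega). Genes at 1 RPKM or more numbered 6566 in Ctrl 1, 6171 in Irf8 cKO 1, 6433 in Ctrl 2 and 4845 in Irf8 cKO 2, so the last library stands apart. Irf8 itself was listed at 14.5 and 14.9 RPKM in Ctrl 1 and 2 and at 20.6 and 11.6 in Irf8 cKO 1 and 2, so its transcript does not separate the groups, and directions below are those of the libraries labelled Irf8 cKO. Of the defining GC B cell markers in the tables, 12 of 12 passed the filter on low values. They summed to 510 and 459 RPKM in Ctrl 1 and 2, with 381 and 262 in Irf8 cKO 1 and 2. The 7 plasma cell markers summed to 63.4 and 38.6 RPKM in Ctrl 1 and 2, with 45.5 and 27.9 in Irf8 cKO 1 and 2. Most of that was Igj (11.1 to 28.9 RPKM) and Mzb1 (9.89 to 21.1), while Sdc1 and Tnfrsf17 reached at most 0.209 and 0.0388. The summed markers reached at most 0.0977 for T cells, 0.0753 for NK cells and 1.56 for erythroid cells. The 6 myeloid markers summed to 65.0 and 7.74 RPKM in Ctrl libraries 1 and 2, with 16.9 and 2.24 in Irf8 cKO 1 and 2. Most of that was S100a8 (0.477 to 26.0 RPKM), S100a9 (0.575 to 21.8) and Lyz2 (0.988 to 16.5). Each of these was highest in Ctrl 1 and lowest in Irf8 cKO 2. Csf1r and Itgam reached at most 0.0935 and 0.706, and Cd14 was listed at 0 in all 4 libraries. The part of plasma, myeloid and other cells in the results below was not tested.

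Lars2 carries a sequence that sets it apart from the other 35 genes. The window below is shown because its capitals mark TACGAGAGG, the core letters of the sarcin-ricin loop of large-subunit ribosomal RNA. It was read from the GENCODE transcript of Lars2 (GRCm38, plus strand), in the last of 21 exons, within a 3′ UTR of 986 bases (chr9:123461679-123462664), at chr9:123462160-123462189.
Lars2 3′ UTR: atcctgctcagTACGAGAGGaaccgcagct

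No other member held these letters on either strand in the transcripts matched to the 36 genes. Over the whole annotation 148 of 55341 genes held them, 0.267%. Among the 103 such genes listed in the tables Lars2 had the highest mean, but it was selected for its level, so this rank is no test. The next, Eif5a, a translation factor gene, had a mean of 33.1 RPKM. The match describes letters only.

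The deposited entry of Lars2 spans chr9:123366940-123462664 on the plus strand (mm10). Lars2 was listed at 554 RPKM in Ctrl 1, 461 in Irf8 cKO 1, 250 in Ctrl 2 and 1014 in Irf8 cKO 2. The Ctrl mean was 402 ± 215 and the Irf8 cKO mean 737 ± 391 (SD, n = 2 each), and the groups overlapped, since Irf8 cKO 1 lay between the Ctrl libraries. Lars2 was the 4th, 3rd, 6th and 2nd highest of all genes in these libraries in the same order. It stood 57.0, 54.8, 37.1 and 284 times above Nars, the next highest synthetase gene. It made up 84.1%, 83.5%, 72.5% and 95.1% of the summed RPKM of the 36 genes, so a sum over the family is mostly a reading of Lars2.

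Rn45s, the entry for the precursor of ribosomal RNA, was the gene set beside it. Its deposited entry spans 5832 bases of chromosome 17. Of the 4 genes annotated there, 0 held the letters TACGAGAGG in their transcripts on either strand. The sequence of the Rn45s entry itself was not read. Rn45s was listed at 9085 RPKM in Ctrl 1, 8589 in Irf8 cKO 1, 5887 in Ctrl 2 and 16716 in Irf8 cKO 2, the same order of libraries as Lars2. Lars2 amounted to 6.10%, 5.36%, 4.25% and 6.07% of Rn45s. Over the 4 libraries Lars2 varied 4.05-fold from lowest to highest, Rn45s 2.84-fold, and their ratio 1.43-fold. In experiment 1 the log2 ratio of Irf8 cKO over Ctrl, on the log2(RPKM + 1) scale, was -0.27 for Lars2 and -0.08 for Rn45s. In experiment 2 it was 2.01 and 1.51. Lars2 thus had opposite signs in the experiments and its high mean in Irf8 cKO rests on 1 library. The authors' deposited table gives Lars2 a log2 ratio of -0.06 in experiment 1 and 2.74 in experiment 2, each from 1 library against 1. Whether reads counted for Lars2 came from ribosomal RNA was not tested.

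**Figure D1:**
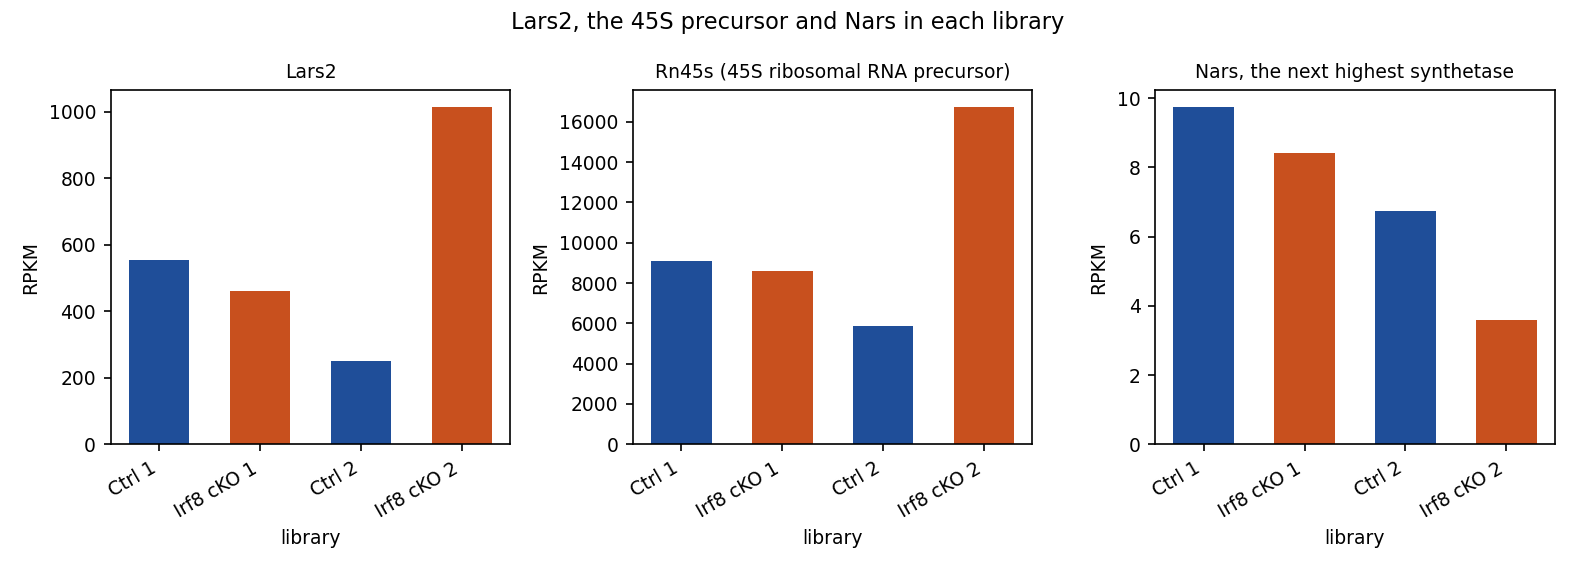
Bars give the RPKM of Lars2, Rn45s and Nars (linear axes from 0) in the 4 libraries, blue for Ctrl and orange for Irf8 cKO, with 1 bar per library and hence no error bars. Lars2 and Rn45s share their highest library, Irf8 cKO 2, and their lowest, Ctrl 2, while Nars is lowest in Irf8 cKO 2.

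Outside Lars2 the cytosolic genes lay above the mitochondrial genes. The median cytosolic level was 4.46 RPKM in Ctrl 1, 3.89 in Irf8 cKO 1, 4.13 in Ctrl 2 and 1.86 in Irf8 cKO 2. The median of the 15 other mitochondrial genes was 0.547, 0.718, 0.690 and 0.443 RPKM in the same order. The ratio of these medians was 8.15, 5.42, 5.98 and 4.19. With Lars2 kept, the ratios were 7.04, 5.17, 5.12 and 3.89. From 15 to 18 of the 20 cytosolic genes lay above all 15 mitochondrial genes in a given library.

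The highest cytosolic genes were Nars (asparagine), Kars, Rars (arginine) and Dars (aspartate), and the last 3 belong to the multisynthetase complex. Nars measured 9.73 and 6.75 RPKM in Ctrl libraries 1 and 2, with 8.41 and 3.58 in Irf8 cKO 1 and 2, and was the highest of the 35 genes in each library. Kars measured 7.41 and 6.08 in Ctrl and 6.22 and 3.22 in Irf8 cKO. Rars measured 6.04 and 6.69 in Ctrl and 5.43 and 3.06 in Irf8 cKO. The ranges of these 3 genes overlapped across libraries, and Kars and Rars changed places in Ctrl 2, so their order is not beyond the spread. Dars measured 8.53 and 4.22 RPKM in the Ctrl libraries, against 5.19 and 3.17 in Irf8 cKO, the widest Ctrl spread of the cytosolic genes (6.37 ± 3.04, SD, n = 2). The lowest cytosolic gene was Cars (cysteine), at 1.17 and 1.47 in Ctrl and 0.928 and 0.666 in Irf8 cKO. Below it by mean lay 12 mitochondrial genes, and above it only Lars2, Iars2 (isoleucine), Fars2 (phenylalanine) and Rars2 (arginine).

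The lowest of the family were Aars2 (alanine), Pars2 (proline), Ears2 (glutamate), Wars2 (tryptophan) and Vars2 (valine), all mitochondrial. Aars2 measured 0.0812 and 0.292 RPKM in the Ctrl libraries, against 0.203 and 0.219 in Irf8 cKO, which corresponds to about 20 to 61.7 reads. Pars2 measured 0.283 and 0.343 in Ctrl and 0.349 and 0.154 in Irf8 cKO. Ears2 measured 0.169 and 0.384 in Ctrl and 0.383 and 0.211 in Irf8 cKO. The groups overlapped for all 3 genes. Wars2 stayed between 0.298 and 0.449 RPKM. Vars2 went from 0.267 in Ctrl 1 to 0.579 in Irf8 cKO 1, and from 0.506 in Ctrl 2 to 0.113 in Irf8 cKO 2. Low genes rest on few reads, and the read counts are approximate because they use estimated totals and annotated lengths.

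**Figure D2:**
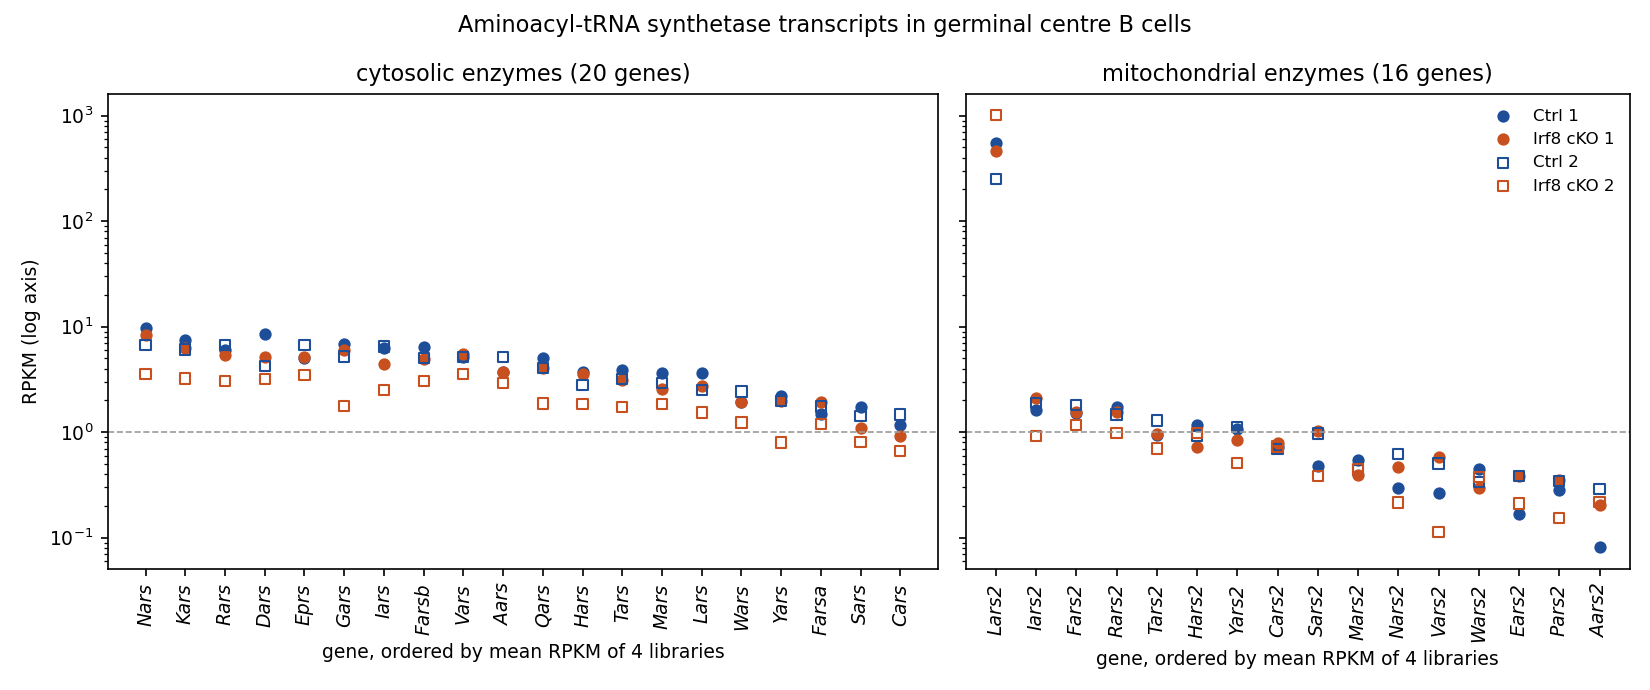
RPKM (log axis) of the 20 cytosolic and 16 mitochondrial genes in the 4 libraries, with filled circles for experiment 1, open squares for experiment 2, blue for Ctrl and orange for Irf8 cKO. Lars2 sits between 250 and 1014, while the other 35 genes lie between 0.0812 and 9.73. The dashed line marks 1 RPKM.

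Pairing the enzymes by amino acid gave 16 pairs, with Eprs entering for glutamate and for proline. In 13 pairs the cytosolic gene was higher in all 4 libraries. The widest of these were Eprs over Pars2 (14.9 to 22.6 times), Aars over Aars2 (13.4 to 45.6), Nars over Nars2 (10.8 to 32.8), Eprs over Ears2 (13.6 to 29.7) and Vars over Vars2 (9.58 to 31.4). Mars over Mars2 (methionine) ran from 4.15 to 6.71 times, Rars over Rars2 from 3.14 to 4.55 and Hars over Hars2 (histidine) from 1.89 to 5.01. The narrowest were Yars over Yars2 (tyrosine, 1.55 to 2.33) and Sars over Sars2 (serine, 1.06 to 3.64).

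Leucine, phenylalanine and cysteine were the exceptions. Lars, the cytosolic leucine enzyme, measured 3.61 and 2.52 RPKM in the Ctrl libraries, against 2.73 and 1.54 in Irf8 cKO, below most cytosolic genes, and Lars2 was higher in all 4 libraries. Farsa, the catalytic subunit of the cytosolic phenylalanine enzyme, measured 1.49 and 1.75 in Ctrl and 1.95 and 1.20 in Irf8 cKO. Fars2 measured 1.52 and 1.81 in Ctrl and 1.56 and 1.17 in Irf8 cKO, so that Farsa was 0.982, 1.25, 0.967 and 1.02 times Fars2 and the pair could not be put in order. Farsb, the other subunit of the same cytosolic enzyme, measured 6.41 and 5.03 in Ctrl and 4.98 and 3.07 in Irf8 cKO, above Farsa in each library. The assembled enzyme holds both subunits in equal number. Cars was above Cars2 in 3 libraries, by 1.18 to 2.13 times, and at 0.908 times Cars2 in Irf8 cKO 2. As deposited, Cars2 itself varied least of the 36 genes, from 0.690 to 0.785 RPKM (1.14-fold). That rank did not hold after the median-of-ratios scaling described below. Cars2 then ran from 0.587 in Ctrl 1 to 1.07 in Irf8 cKO 2, while Rars2 stayed between 1.285 and 1.442.

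**Figure D3:**
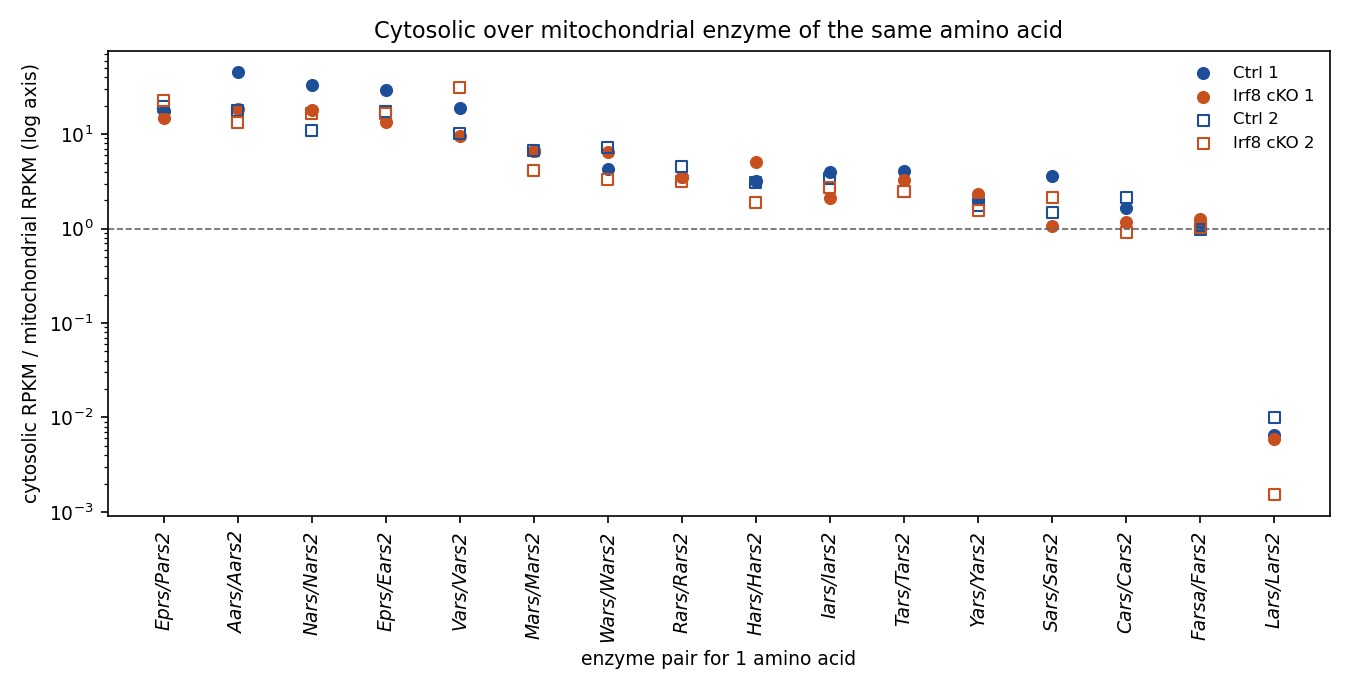
Ratio of cytosolic to mitochondrial RPKM (log axis) for 16 enzyme pairs ordered by median, with 1 point per library and the same symbols as the plot of levels. 13 pairs lie above the dashed line at 1 in all 4 libraries, and Lars over Lars2 lies between 0.00152 and 0.0101.

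Some of these levels are uncertain because the transcript shares sequence with another gene and the counting could assign a read to either. The share of a member's 31-base words that also occur in transcripts of other genes was 36.8% for Iars2, with Rab3gap2, 22.7% for Aars, with Exosc6, and 19.7% for Cars2, with Naxd. It was 17.7% for Iars, almost all with the pseudogene Gm4849, and 11% for Farsb, with Sgpp2. Hars and Hars2 shared 8.42% and 5.20%, largely with each other. For Lars2 it was 1.09%, in 3 stretches of the 3′ UTR of 41, 34 and 57 bases shared with AA474408 and Gm15564. The window shown above lies outside these stretches. This search covered annotated transcripts only, and no separate ribosomal RNA sequence was compared. The share for Lars2 thus does not measure what it has in common with ribosomal RNA.

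The comparison of Irf8 cKO with Ctrl asks whether loss of IRF8 in B cells changed these genes. It was fitted over the 6446 genes at 1 RPKM or more in at least 2 libraries, with the experiment as a block (limma, 2-sided, Benjamini-Hochberg threshold 0.05). Of the 36 genes 25 passed that filter, all 20 cytosolic and 5 mitochondrial (Lars2, Iars2, Fars2, Rars2 and Yars2). Members below it are given by values only. In sorted bulk samples fewer cells of a type and less RNA per cell cannot be told apart.

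No cytosolic gene passed the threshold in either direction. Of the 24 tested genes other than Lars2, limma called 0 lower and 0 higher, beside 1.09% lower and 0.0931% higher among all genes tested. At an unadjusted p under 0.05 there were 2 of the 24, Iars and Gars, and 1214 of all 6446 genes. After median-of-ratios scaling, which brings the libraries to a common level before the log, limma called 0 of the 24, beside 0% of all genes. At an unadjusted p under 0.05 it then had 1 of the 24, Iars, and 659 of all genes.

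As deposited, all 20 cytosolic genes had a fitted log2 ratio below 0. So did 92.4% of all genes tested, so the shared sign is not particular to the synthetases. Among the 20, Cars reached 1 RPKM in the 2 Ctrl libraries only, so it passed the filter through the group where it is high. The cytosolic median was -0.42, beside -0.35 over all genes tested, and 15 of the 20 lay below the latter. By experiment the cytosolic medians were -0.18 and -0.62, and those of all genes tested were -0.18 and -0.51. 16 of the 20 were below 0 in both experiments (80%), beside 71.2% of all genes tested. After scaling the cytosolic median was -0.09, beside -0.04 over all genes, and 15 of the 20 were below 0. Scaling thus moved the median of all genes by more than the distance between the cytosolic genes and the rest.

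Iars (chr13:49682130-49734267, plus strand), the isoleucine enzyme of the multisynthetase complex, had the lowest fitted ratio of the 24 genes. It measured 6.34 and 6.49 RPKM in the Ctrl libraries, against 4.42 and 2.50 in Irf8 cKO, so that both Irf8 cKO libraries lay under both Ctrl libraries, also after scaling. The log2 ratio was -0.77 ± 0.31 (SE; limma adjusted p = 0.204), and -0.39 ± 0.15 after scaling (adjusted p = 0.479), with -0.27 and -0.52 in experiments 1 and 2. Part of its sequence is shared with a pseudogene, as given above. Gars measured 6.88 and 5.22 RPKM in the Ctrl libraries, against 6.04 and 1.76 in Irf8 cKO, the widest range of the cytosolic genes (3.91-fold). Its log2 ratio was -0.67 ± 0.31 (limma adjusted p = 0.241). After scaling its experiments had 0.01 and -0.64, so the lower value stood in Irf8 cKO 2 alone.

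Among genes with the same sign in both experiments after scaling, the lowest after Iars were Qars (glutamine), Sars (serine) and Cars. Qars measured 5.09 and 4.03 RPKM in the Ctrl libraries, against 4.07 and 1.87 in Irf8 cKO, and its scaled log2 ratio was -0.19 ± 0.15. Sars measured 1.74 and 1.44 in Ctrl and 1.10 and 0.811 in Irf8 cKO, and its scaled ratio was -0.15 ± 0.15. That of Cars was -0.14 ± 0.14. Cars passed the filter through the Ctrl libraries only, so it was favoured to rank among the lowest. The adjusted p of these 3 genes after scaling ran from 0.659 to 0.745 (limma).

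The highest scaled ratios belonged to Farsa, Vars (valine), Fars2 and Hars. They were 0.24 ± 0.15 for Farsa, 0.21 ± 0.14 for Vars, 0.10 ± 0.14 for Fars2 and 0.10 ± 0.14 for Hars (SE; limma adjusted p from 0.601 to 0.815). Vars levels were 5.11 and 5.19 RPKM in the Ctrl libraries, then 5.55 and 3.54 in Irf8 cKO. All 4 genes had a fitted ratio below 0 as deposited, from -0.23 to -0.04, so their sign depends on the scaling.

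As deposited, both Irf8 cKO libraries lay below both Ctrl libraries for 9 of the 25 tested members, Rars, Iars, Farsb, Tars (threonine), Mars, Wars (tryptophan), Sars, Cars and Yars2, beside 44.7% of all genes tested. Cars and Yars2 reached 1 RPKM in the 2 Ctrl libraries only, so they passed the filter through the group in which they are high and were favoured to count as lower. Both lay above for 0 members, beside 1.19% of all genes. After scaling 3 members lay below (Iars, Sars and, with the same limit of the filter, Yars2), beside 18.4% of all genes, and 3 above (Vars, Farsa and Rars2), beside 13% of all genes.

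The 8 genes of the multisynthetase complex had median log2 ratios of -0.29 and -0.76 in experiments 1 and 2 as deposited, and the 12 cytosolic genes outside it -0.14 and -0.59. After scaling these were -0.13 and -0.16 inside the complex and 0.02 and -0.09 outside it. The scaffold genes of the complex, Aimp1, Aimp2 and Eef1e1, gave fitted ratios from -0.50 to -0.39 as deposited and from -0.18 to -0.14 after scaling, and 0 of 3 passed the threshold. By catalytic class the scaled cytosolic medians were -0.07 and -0.21 for the 9 class I genes and -0.03 and -0.05 for the 10 class II genes, with Eprs in both classes and left out. These differences between groups of genes were not tested.

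The mitochondrial genes did not share a direction between experiments. On the plain log2 ratio of RPKM, 10 of the 15 genes other than Lars2 were above 0 in experiment 1 and 4 in experiment 2, and 9 went from above 0 to below 0. The same held for 4 of 20 cytosolic genes and for 26.6% of the 11717 genes above 0 in all 4 libraries. The mitochondrial medians were 0.12 and -0.86 in experiments 1 and 2, beside -0.21 and -0.73 over those genes. Aars2 had 1.32 and -0.42, Ears2 1.18 and -0.86, Sars2 1.12 and -1.34, Vars2 1.12 and -2.17 and Nars2 0.66 and -1.53. All 5 are among the 8 lowest of the family, with about 20 to 195 reads per library. The authors' deposited table gives Vars2 a log2 ratio of 1.32 in experiment 1 and -1.45 in experiment 2, each from 1 library against 1. Rars2 and Yars2 were below 0 in both experiments and Cars2 above 0 in both. After scaling, on the log2(RPKM + 1) scale, the medians of the 15 genes were 0.13 and -0.03, 4 of 15 were above 0 in both experiments and 1 below 0 in both. Over all genes tested the scaled medians were -0.03 and -0.02, with 25.02% above 0 in both and 33.15% below 0 in both. Most of the 15 did not pass the filter of that set. Rars2 was above 0 in both after scaling (0.02 and 0.09), so its sign depends on the scaling.

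**Figure D4:**
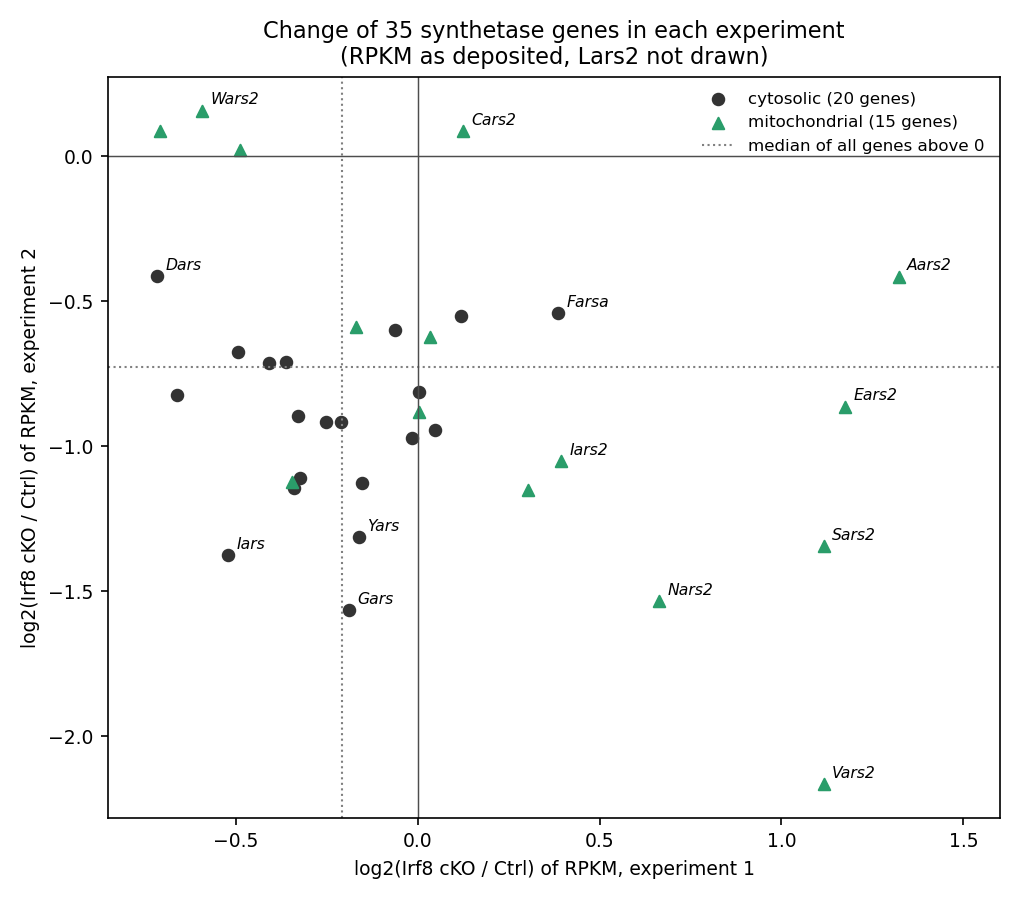
Plain log2 ratio of RPKM, Irf8 cKO over Ctrl, in experiment 1 (x axis) and experiment 2 (y axis), for 20 cytosolic genes (circles) and 15 mitochondrial genes (triangles), with dotted lines at the medians of all genes above 0 (-0.21 and -0.73). All cytosolic genes lie below 0 in experiment 2, and Aars2, Ears2, Sars2, Vars2 and Nars2 spread to the right in experiment 1.

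Related enzymes and pathway genes, from lists chosen with earlier results known, were read from the same fit. Aarsd1, which encodes an alanyl-tRNA editing protein related to the family, had a ratio of -0.28 as deposited and did not pass. Qrsl1 and Gatc encode subunits of the amidotransferase that makes mitochondrial glutaminyl-tRNA. Qrsl1 had -0.58 and Gatc -0.56 as deposited, and both had -0.27 after scaling. Of 8 tested elongation factor genes 0 passed, from Eef1b2 at -0.77 to Tufm, the mitochondrial elongation factor, at -0.11, and their median was -0.54, or -0.10 after scaling. Of 27 integrated stress response genes 14 were tested and 0 passed. Their median was -0.48 as deposited and -0.19 after scaling, from Shmt2, an enzyme of serine metabolism, at -0.66 to Eif2ak4, which encodes GCN2, at -0.01. At an unadjusted p under 0.05 limma had 5 of these 14 genes and 2 of the 8 elongation factor genes as deposited, beside 1214 of all 6446, and 0 of either list after scaling, beside 659 of all. Atf4 measured 13.4 and 10.7 RPKM in the Ctrl libraries, against 9.99 and 7.09 in Irf8 cKO, with a ratio of -0.46 ± 0.34 (SE; limma adjusted p = 0.379).

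The promoters of 5 cytosolic genes held the core of an amino acid response element. The motif searched was TGATGNAA on both strands, in RefSeq promoters (GRCm38.p6) from 250 bases before to 50 after each gene's start, and promoters were found for 13 cytosolic and 14 mitochondrial members. It occurred in Aars, Gars, Iars, Tars and Yars, 38.5% of the cytosolic promoters, in 0 of the mitochondrial ones, in 4.51% of 27025 genes with a promoter and in 2.45% of 5185 tested genes. Windows of 5 matches, 1 for each gene, are shown on the strand of the gene, with the match in capitals, because they mark which members carry it. The shown matches of Gars and Tars lie before the gene's start, and those of Iars, Aars and Yars lie after it. The matches are at chr6:55037971-55037978 for Gars, chr13:49682137-49682144 for Iars, chr8:111033851-111033858 for Aars, chr15:11399666-11399673 for Tars (minus strand gene) and chr4:129189906-129189913 for Yars.
Gars: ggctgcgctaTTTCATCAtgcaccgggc
Iars: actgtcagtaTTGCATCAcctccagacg
Aars: gcgggtcactTTTCATCAgagcgctctg
Tars: aggagtcccgTTGCATCAgctggttagc
Yars: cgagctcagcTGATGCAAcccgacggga

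After scaling the fitted log2 ratios of these 5 genes were 0.05 for Aars, -0.32 for Gars, -0.39 for Iars, -0.11 for Tars and -0.16 for Yars, with adjusted p from 0.479 to 0.933 (limma). The groups overlapped after scaling for all of them except Iars. The match is a description of the promoter, and binding was not measured.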

How the data were processed

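Per the labels' protocols, the RNA of the 4 GC B cell libraries was amplified (Ovation RNA-Seq System v2) before library preparation (Nextera XT). The authors deposited 1 table per experiment with RPKM for each RefSeq gene. The series design text names Wardrobe for these data. Tables were normalized separately, so the contrast of the main fit was taken within a table. Group means with SD, non-overlap counts and the fits without the block or without 1 library set both tables side by side. Per the submitters' processing notes, the tools were DESeq, Cuffdiff, Cufflinks 2.2 and TopHat2 2.0, and the builds mm10 and mm9, without roles. Which aligner made these tables is not stated there. Per the file headers each table also has the authors' log2 ratio, which differs from the log2 RPKM ratio by a constant (0.205 and 0.721, within 0.05 for 97.1% and 96.3% of genes), and the authors' unadjusted p-value. Of the symbols, 2 had several entries, which were summed. Deposited starts equal those of RefSeq GRCm38.p6 for 54.0% of 21684 matched genes.

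Members, lists and the rule for named genes were chosen with earlier results of these data known. Named were the 5 highest and 5 lowest members by mean, any past the threshold, the 4 lowest and 4 highest scaled ratios of 1 sign in both experiments, and exceptional pairs. A linear model was fitted to log2(RPKM + 1), which understates the change of low genes, with limma 3.58.1 in R 4.3.3 (lmFit, eBayes with trend, 1 residual degree of freedom). It was also run on simulated data with an equal spread for every gene and no shift of a whole library. That run cannot show how the fit behaves on these libraries. The prior degrees of freedom were infinite as deposited, so SE and p come from the trend over genes of like level, and 4.90 after scaling. Scaling factors over the 11717 genes above 0 in all libraries were 1.23, 1.07, 1.14 and 0.685 for Ctrl 1, Irf8 cKO 1, Ctrl 2 and Irf8 cKO 2. The labels number the experiments, and deviations of same-numbered libraries from the group means correlated at 0.377 as deposited and 0.336 after scaling. Totals were estimated from the spacing of low values, of which 71.2% to 74.8% came out whole within 0.1 reads, so no count model was run. Transcript lengths and windows came from GENCODE vM21. Other software was matplotlib 3.10.9, pandas 2.3.3, numpy 2.4.6 and Python 3.11.15. Some items of the lists and windows are not reported here.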

Additional observations from a re-analysis of the deposited data

How the results depend on the processing

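The number of members other than Lars2 called was 0 as reported, with a pseudocount of 0.1, with no filter, without the replicate block and after scaling. Leaving out the replicate block changed no call among these 24 members, and all genes called went from 70 lower and 6 higher to 19 and 2 without it. They were 49 and 5 with a pseudocount of 0.1, and 0 with no filter (1405 at an unadjusted p under 0.05, limma). Leaving out each library gave 0 to 4 called members. The 4 were Gars, Iars, Qars and Yars, all lower, without Irf8 cKO replicate 1, when 1450 genes of all were lower and 9 higher. That fit rests on Irf8 cKO replicate 2 alone, assumed to vary like the Ctrl group.

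The cytosolic median log2 ratio of -0.42 moved to -0.0876 after scaling, with or without the block, and to -0.0435 with scaling over the tested genes, which called 3 genes lower and 1 higher. It ran from -0.69 to -0.13 without each library, and from -0.17 to -0.0186 when scaled (-0.0687 without Ctrl replicate 1). The mitochondrial median of -0.18 covers the 5 tested genes, with Lars2 among them. Of these, Yars2 passed the filter through the Ctrl libraries only. That median was -0.30 with a pseudocount of 0.1 and -0.0736 with no filter, where all 16 genes enter. It moved to 0.0889 after scaling, with or without the block, and to 0.12 with scaling over the tested genes. It ran from -0.39 to -0.0316 without each library, and from -0.00114 to 0.19 when scaled (0.0463 and 0.0564 without Irf8 cKO replicates 1 and 2), and was -0.19 without Lars2. Scaling changed the sign of 8 of the 24 fitted ratios and leaving out Irf8 cKO replicate 2 that of 6, while the pseudocount, the filter and the block changed 0. The scaled fits with a further change, the scaling over tested genes and the median without Lars2 were chosen after seeing the data. The level of cytosolic over mitochondrial genes (5.15, the median of 4 libraries) was 5.70 without Lars2, and 14 in place of 13 pairs were higher when 3 libraries sufficed. Low genes rest on few reads, and 2 libraries per group limit each SE.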
